A study of Homo sapiens with 24 samples.

Results

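The earliest transcriptional response to rotenone in the series was measured on day 8 of differentiation, in 3D aggregates of LUHMES cells exposed to 50 nM rotenone for 12 h (3 arrays), against vehicle (DMSO) aggregates of the same day (3 arrays). These 6 arrays were taken by their sample titles from the 24 of the series, which has 8 groups of 3 arrays. The other groups used here for comparison were day 8 aggregates after 24 h of 50 nM or 100 nM rotenone, and day 15 aggregates labelled DMSO or 50 nM rotenone 12 h. Each RNA sample was hybridized with Cy3 to an Agilent human gene expression array in 1 color. LUHMES are a conditionally immortalized human mesencephalic line whose proliferation is driven by a tetracycline-controlled v-myc. Every group was differentiated in the same way, in 6-well plates on a gyratory shaker in medium with N2 supplement, tetracycline, cAMP and GDNF, so all groups carried these agents. Rotenone was added on day 7, and day 15 stands for cultures kept on after the compound was washed out. The DMSO control carried the amount of solvent used for the 100 nM dose. The 3 samples of a group were separate wells, and nothing in the labels ties them to separate cultures, so p-values measure the spread between these wells. The labels give no exposure time for DMSO. The scan names of the day 8 DMSO arrays give 24 h, so the 12 h rotenone arrays had no vehicle known to be of the same duration, and collection time and treatment cannot be told apart.

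Rotenone binds complex I (NADH:ubiquinone oxidoreductase) of the mitochondrial respiratory chain and stops electron flow to ubiquinone, which lowers respiratory ATP production and leads cells to rely on glycolysis. TXNIP and ARRDC4 are α-arrestins that restrain glucose uptake, and their transcription by MondoA (MLXIP) and its partner MLX follows glucose 6-phosphate and is known to be very sensitive to the energy state. Stressed mitochondria can also signal to the nucleus through eIF2α phosphorylation and the transcription factor ATF4, which switches on amino acid synthesis, transport and the stress genes CHAC1, SESN2 and DDIT4. Dopaminergic neurons synthesize dopamine with tyrosine hydroxylase (TH) and take it up again through the transporter SLC6A3, and they are the neurons most often studied with this compound.

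The label of dopaminergic neurons was checked against marker genes. A probe was taken as well above background by the scanner software's own test. All 14 pan-neuronal genes tested, among them the neurofilaments NEFL, NEFM and NEFH, were well above background on all 6 arrays. Of 22 dopaminergic genes, 16 were, including TH, SLC6A3, NR4A2, PITX3, EN1, DDC and DRD2. The vesicular transporter SLC18A2 was well above background on 0 of 3 DMSO arrays and 1 of 3 rotenone arrays, LMX1A and ALDH1A1 on 1 array of each group, and FOXA1 on 0 arrays. Of the 37 marker genes of astrocytes, oligodendrocytes, microglia, fibroblasts, endothelium and neural progenitors that were tested, 0 passed the test between rotenone and DMSO, and the 6 list medians lay between -0.16 and 0.19. Of these 37 genes, 16 were well above background on all 6 arrays. They were 1 of 7 astrocyte, 4 of 6 oligodendrocyte and 2 of 6 microglia genes. The rest were 2 of 7 fibroblast, 3 of 6 endothelial and 4 of 5 neural progenitor genes. GFAP, AQP4, P2RY12, CX3CR1, COL3A1, TEK, KDR and SOX2 were not well above background on any of the 6 arrays. OLIG1, OLIG2, MOG, TMEM119, CLDN5, NES and VIM were on all 6. In RNA of whole aggregates, fewer cells of a kind and less RNA per cell cannot be told apart.

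The 24 arrays lay on 3 slides of 8 arrays, and the replicate number is the slide, so each slide held 1 array of every group. Slide 1 is described in the labels as a repeated slide that needs a batch correction. Between 54.0% and 67.3% of spots were well above background on the DMSO arrays and between 53.5% and 72.1% on the 12 h arrays, with the highest share of each group on slide 1, and 0 spots were saturated. The slide was therefore kept as a block, which compares rotenone with DMSO within each slide. A group had the same place on all 3 slides, so place and group cannot be told apart. Array numbers below are slide numbers, levels are log2 normalized intensities, and differences are log2 values of rotenone minus DMSO with the standard error of the fit.

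After 12 h, 390 of 21324 genes (1.83%) differed by more than 1.5-fold with an adjusted p under 0.05, which is what "called" means below. Of these, 180 were higher (0.844% of genes tested) and 210 lower (0.985%) than in DMSO, and 33 and 35 of them by more than 2-fold. The median fold of the called genes was 1.66 upward and 1.64 downward. With no fold limit, 1297 genes (6.08%) passed the adjusted p, 601 upward (2.82%) and 696 downward (3.26%). The 3 rotenone and 3 DMSO arrays did not overlap in 359 of the 390 called genes, compared with 15.4% of all genes, and 389 of the 390 moved in 1 direction on all 3 slides, compared with 44.6% of all genes. The 390 were called on these same arrays with the slide as a block. Both counts therefore largely follow from the call and are no separate support for it. The called genes were well above background on all 6 arrays in 358 cases. Long non-coding RNAs made up 12 of the 180 higher and 28 of the 210 lower genes, against 2410 of the 21324 genes tested. The test was limma's moderated test with Benjamini-Hochberg adjustment over all genes. Without the slide as a block the count was 172, and with Agilent's processed signal it was 602, of which 62% were higher, against 46.2% in the fit given here.

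**Figure D1:**
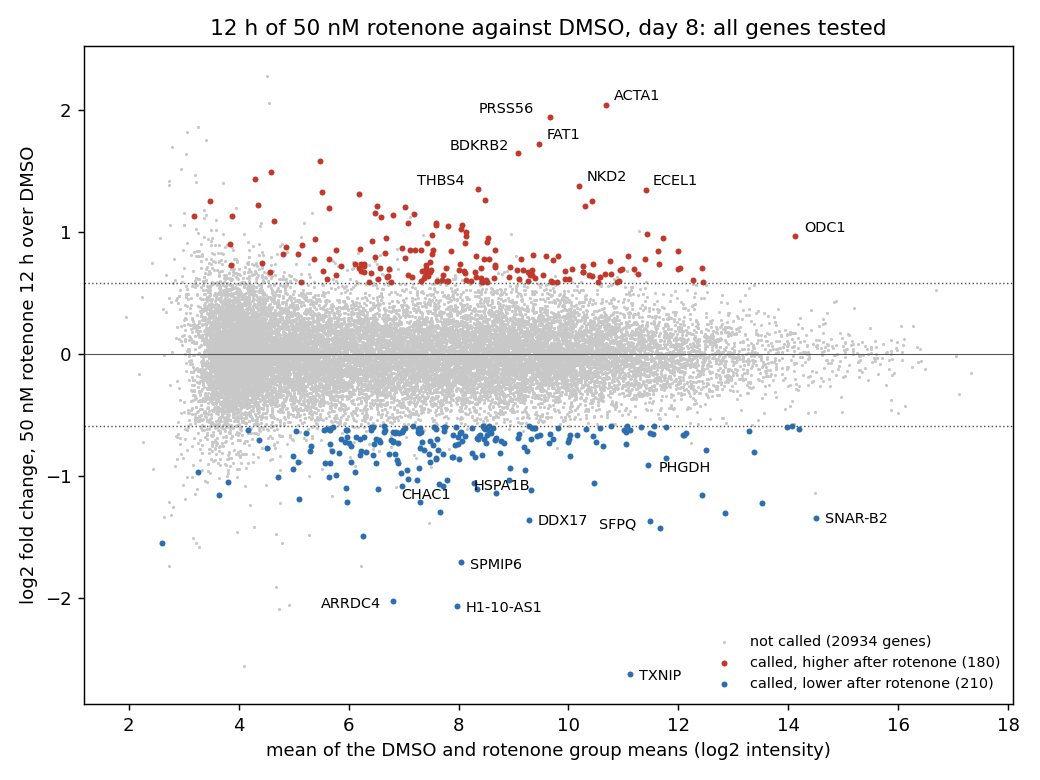
Each of the 21324 genes tested is a point, with the mean of the 2 group means on the x axis (log2 intensity) and the log2 fold change of 12 h rotenone over DMSO on the y axis; dotted lines mark a 1.5-fold change. The 180 genes called higher are red and the 210 called lower are blue, TXNIP has the lowest value of the called genes (-2.62) and ACTA1 the highest (2.04).

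Of all called genes, the α-arrestin TXNIP, which binds thioredoxin and removes glucose transporters from the cell surface, fell the most. Its level was 12.65, 12.42 and 12.19 on the DMSO arrays and 9.93, 9.73 and 9.75 on the rotenone arrays. The groups lay far apart on every slide, and the difference was -2.62 ± 0.14 (log2, SE), adjusted p = 1.98e-08, which is a 6.16-fold fall. ARRDC4, the α-arrestin closest to TXNIP in its regulation, fell with it. Its level was 7.75, 7.94 and 7.78 on the DMSO arrays and 5.41, 5.99 and 6.01 on the rotenone arrays, again without overlap, and the difference was -2.02 ± 0.14 (log2, SE), adjusted p = 7.96e-07. TXNIP and ARRDC4 belong to the 12 largest decreases described below, whose choice required groups without overlap. Of the 9 α-arrestins and MLX-family factors tested, these 2 were called lower and 1 higher, against 0.985% and 0.844% of all genes. The one called higher was the glucose-responsive factor MLXIP (0.65, adjusted p = 0.0011), and the list's median was 0.03 against -0.01 over all genes. The MLXIP value averages 2 probes that disagreed (1.04 and 0.26). The call of MLXIP was lost with a background offset of 50 or with the brightest probe per gene (adjusted p 0.252 or a log2 difference of 0.48).

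The promoters of these 2 α-arrestin genes are shown because both fell together and both are textbook targets of MondoA and MLX, which bind paired E-boxes (the carbohydrate response element). The 250 bases before each gene's start are given 5′ to 3′ on the gene's strand, from RefSeq on GRCh38.p14. Capitals mark a match on either strand to the carbohydrate response element, 2 E-box-like sites spaced by 5 bases, in TXNIP, 88 to 72 bases before the start, and to the E-box CACGTG in ARRDC4, 210 to 205 bases before it.
TXNIP (chr1:145996580-145996829, minus strand): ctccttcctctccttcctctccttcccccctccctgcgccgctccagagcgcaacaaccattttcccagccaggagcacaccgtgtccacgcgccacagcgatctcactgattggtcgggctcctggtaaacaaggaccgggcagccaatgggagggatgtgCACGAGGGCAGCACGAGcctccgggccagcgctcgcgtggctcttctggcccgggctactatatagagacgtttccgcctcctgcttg
ARRDC4 (chr15:97960453-97960702, plus strand): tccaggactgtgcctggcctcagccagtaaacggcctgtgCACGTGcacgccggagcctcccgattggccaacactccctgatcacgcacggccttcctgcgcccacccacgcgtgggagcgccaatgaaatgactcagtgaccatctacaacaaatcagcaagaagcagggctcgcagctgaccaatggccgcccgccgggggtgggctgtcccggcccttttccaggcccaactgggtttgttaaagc
The carbohydrate response element was found in 16 of the 16190 promoters of tested genes in the RefSeq table (0.0988%), and the E-box in 7.67% of them. A match of letters is a description of the sequence, and binding was not measured.

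The decreases were chosen in the same way as the increases below, as the 12 largest among called genes well above background on all 6 arrays and without overlap. The antisense RNA H1-10-AS1 was at 8.63, 9.17 and 9.20 on the DMSO arrays and 6.84, 7.00 and 6.97 on the rotenone arrays, a difference of -2.06 ± 0.11 (log2, SE), adjusted p = 1.98e-08. SPMIP6, a sperm microtubule inner protein, differed by -1.70 ± 0.18 (log2, SE), adjusted p = 4.59e-05, and LRRC66, a leucine-rich repeat protein, by -1.49 ± 0.20 (log2, SE), adjusted p = 0.000416. AMH, the TGF-β family hormone that drives regression of the Müllerian duct, was at 7.81, 8.69 and 8.41 on the DMSO arrays and 7.02, 7.14 and 6.87 on the rotenone arrays and differed by -1.29 ± 0.15 (log2, SE), adjusted p = 0.000103. In each of these 4 genes every rotenone array was below every DMSO array, which their choice required. With a background offset of 50, the LRRC66 difference was -0.89.

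Among these 12, SFPQ is a paraspeckle and splicing protein and DDX17 a DEAD-box RNA helicase. SFPQ was at 12.02, 12.51 and 11.95 on the DMSO arrays and 10.54, 11.10 and 10.74 on the rotenone arrays, a difference of -1.37 ± 0.12 (log2, SE), adjusted p = 1.05e-05. DDX17 was at 9.67, 10.34 and 9.85 on the DMSO arrays and 8.42, 8.85 and 8.53 on the rotenone arrays, a difference of -1.36 ± 0.10 (log2, SE), adjusted p = 7.96e-07. All rotenone arrays were below all DMSO arrays in both genes, which their choice required. The 2 DDX17 probes differed by -2.39 and -0.32, and the SFPQ difference was -0.59 in the deposited normalized table. The hnRNP family, whose members package and splice pre-mRNA, was counted after its values were seen. Of 26 hnRNP genes, 8 passed the adjusted p downward and 0 upward, against 3.26% and 2.82% of all genes, with a median of -0.24 and values from -0.87 to 0.32. The count of 8 depended on the fit. It was 4 without DMSO array 1, 2 or 3 or rotenone array 2, 5 without rotenone array 1 and 7 without rotenone array 3, and it was 5 with ComBat in place of the block, 4 in a fit of the day 8 arrays only, 1 without the slide as a block and 0 on slides 2 and 3 alone. With the brightest probe per gene, 6 passed downward and 1 upward, and with a background offset of 50 or only probes well above background in at least 1 group, 9 and 1. SRSF3, an SR splicing factor also picked after its values were seen, was at 12.22, 12.23 and 12.15 on the DMSO arrays and 11.12, 11.47 and 11.44 on the rotenone arrays, a difference of -0.85 ± 0.10 (log2, SE), adjusted p = 0.000109. Of 12 SR proteins tested, 1 was called, SRSF3, and 3 passed the adjusted p downward and 1 upward, with a median of -0.15. Of 38 DEAD-box helicases, 2 were called lower and 0 higher, against 0.985% and 0.844% of all genes. Their median was -0.06, and 2 passed downward and 1 upward.

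The SNAR genes, a primate cluster of near-identical small non-coding RNAs, were also lower. This family, too, was counted after its values were seen. Of 8 SNAR genes tested, 6 were called lower and 0 higher, against 0.985% and 0.844% of all genes, and the median was -1.19. SNAR-F was at 12.64, 12.45 and 12.04 on the DMSO arrays and 11.01, 11.20 and 10.66 on the rotenone arrays, a difference of -1.42 ± 0.28 (log2, SE), adjusted p = 0.00536. SNAR-B2 differed by -1.34, adjusted p = 0.014, SNAR-H by -1.30, adjusted p = 0.0135, SNAR-D by -1.22, adjusted p = 0.0418, SNAR-G1 by -1.03, adjusted p = 0.0153 and SNAR-G2 by -1.16, adjusted p = 0.031. The rotenone arrays of each of these 6 genes lay below all DMSO arrays. For SNAR-F, SNAR-B2, SNAR-H and SNAR-D, which are among the 12 largest decreases, the choice required this. SNAR copies are so alike that their probes may read each other's RNA, so they are no independent measurements. The count of 6 fell to 3 with either 75th percentile scaling or the processed signal, to 2 without the block and to 0 on slides 2 and 3 alone. It was 2 without DMSO array 1, 4 without DMSO array 3 and 3 without any other array, while the median stayed between -1.24 and -1.17 with 1 array left out. For SNAR-F the call did not hold on slides 2 and 3 alone (adjusted p 0.0898). SNAR-B2 was not called on slides 2 and 3 alone, with Agilent's processed signal, with 75th percentile scaling or without DMSO array 2 or rotenone array 2 (adjusted p 0.0566 to 0.124). The call of SNAR-H was lost without the slide as a block, on slides 2 and 3 alone or without DMSO array 1 or rotenone array 3 (adjusted p 0.0525 to 0.153). For SNAR-D the call did not hold without the slide as a block, on slides 2 and 3 alone, with Agilent's processed signal, with 75th percentile scaling or without any 1 of the 6 arrays (adjusted p 0.0988 to 0.244). SNAR-G1 was not called without the slide as a block, on slides 2 and 3 alone or without DMSO array 1 or 2 or rotenone array 1 (adjusted p 0.0514 to 0.673). The call of SNAR-G2 was lost without the slide as a block, on slides 2 and 3 alone, with Agilent's processed signal, with 75th percentile scaling or without DMSO array 1 or 3 or any rotenone array (adjusted p 0.0722 to 0.339).

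The increases named here are the 12 largest among called genes that were well above background on all 6 arrays and whose groups did not overlap. ACTA1, the α-actin of skeletal muscle, was at 9.01, 10.49 and 9.50 on the DMSO arrays and 11.40, 12.08 and 11.63 on the rotenone arrays, a difference of 2.04 ± 0.55 (log2, SE), adjusted p = 0.0356. DMSO array 2 was well above the other DMSO arrays, and all rotenone arrays were higher still. PRSS56, a secreted serine protease, was at 8.72, 8.70 and 8.68 on the DMSO arrays and 10.89, 10.52 and 10.52 on the rotenone arrays, a difference of 1.94 ± 0.20 (log2, SE), adjusted p = 4.12e-05. ECEL1, a neuronal membrane metalloprotease of the neprilysin family, was at 10.47, 10.88 and 10.84 on the DMSO arrays and 12.37, 12.22 and 11.63 on the rotenone arrays, a difference of 1.34 ± 0.19 (log2, SE), adjusted p = 0.00051. For ACTA1 the call did not hold without the slide as a block, on slides 2 and 3 alone or without DMSO array 1 or 3 or any rotenone array (adjusted p 0.061 to 0.149).

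FAT1, an atypical cadherin that acts on actin dynamics and the Hippo pathway, was at 8.38, 8.64 and 8.81 on the DMSO arrays and 10.06, 10.38 and 10.54 on the rotenone arrays, a difference of 1.72 ± 0.24 (log2, SE), adjusted p = 0.000469. CDH3 (P-cadherin) differed by 1.21 ± 0.20 (log2, SE), adjusted p = 0.00175, and the matricellular protein THBS4 by 1.35 ± 0.14 (log2, SE), adjusted p = 4.12e-05. In all 3 genes the groups did not overlap, which their choice required. The CDH3 difference was 0.78 with a background offset of 50. That of THBS4 was 0.66 in the deposited table, and the cause was not tested. CDH3 was not called on slides 2 and 3 alone (adjusted p 0.0774).

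BDKRB2, the bradykinin B2 receptor, was at 8.28, 8.12 and 8.37 on the DMSO arrays and 9.93, 9.86 and 9.91 on the rotenone arrays, a difference of 1.64 ± 0.13 (log2, SE), adjusted p = 3.42e-06. LDLRAD4, an inhibitor of TGF-β signaling, differed by 1.31 ± 0.25 (log2, SE), adjusted p = 0.00501, and RHBDF1, an inactive rhomboid involved in growth factor shedding, by 1.26 ± 0.15 (log2, SE), adjusted p = 0.000182. The uncharacterized gene C11orf96 was at 9.69, 9.62 and 9.77 on the DMSO arrays and 10.89, 10.72 and 11.11 on the rotenone arrays, a difference of 1.21 ± 0.09 (log2, SE), adjusted p = 7.96e-07. Every rotenone array exceeded every DMSO array in these 4 genes, which their choice required. The LDLRAD4 difference was 0.78 with a background offset of 50. The call of LDLRAD4 was lost on slides 2 and 3 alone (adjusted p 0.0874).

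Called genes that were above background in the rotenone group only carry a bound. PEAR1, an EGF-repeat receptor, and ARHGAP8, a GTPase-activating protein, were well above background on all 3 rotenone arrays and on 0 of 3 DMSO arrays. PEAR1 was at least 2.12-fold higher (adjusted p = 0.0356) and ARHGAP8 at least 2.06-fold higher (adjusted p = 0.00687), set against the lowest signal well above background on each DMSO array or the probe's own, whichever was higher. For PEAR1 the probe's own signal was used, so its value equals the fitted difference. Both values hold for this background correction only, since the log2 differences were 2.29 and 2.80 with the processed signal and 0.36 for both with an offset of 50. For PEAR1 the call did not hold without the slide as a block, on slides 2 and 3 alone, with a background offset of 50, with 75th percentile scaling or without DMSO array 2 or 3 or any rotenone array (adjusted p 0.0609 to 0.186 or a log2 difference of 0.36). ARHGAP8 was not called without the slide as a block, with a background offset of 50 or with 75th percentile scaling (adjusted p 0.0972 to 0.141 or a log2 difference of 0.36).

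**Figure D2:**
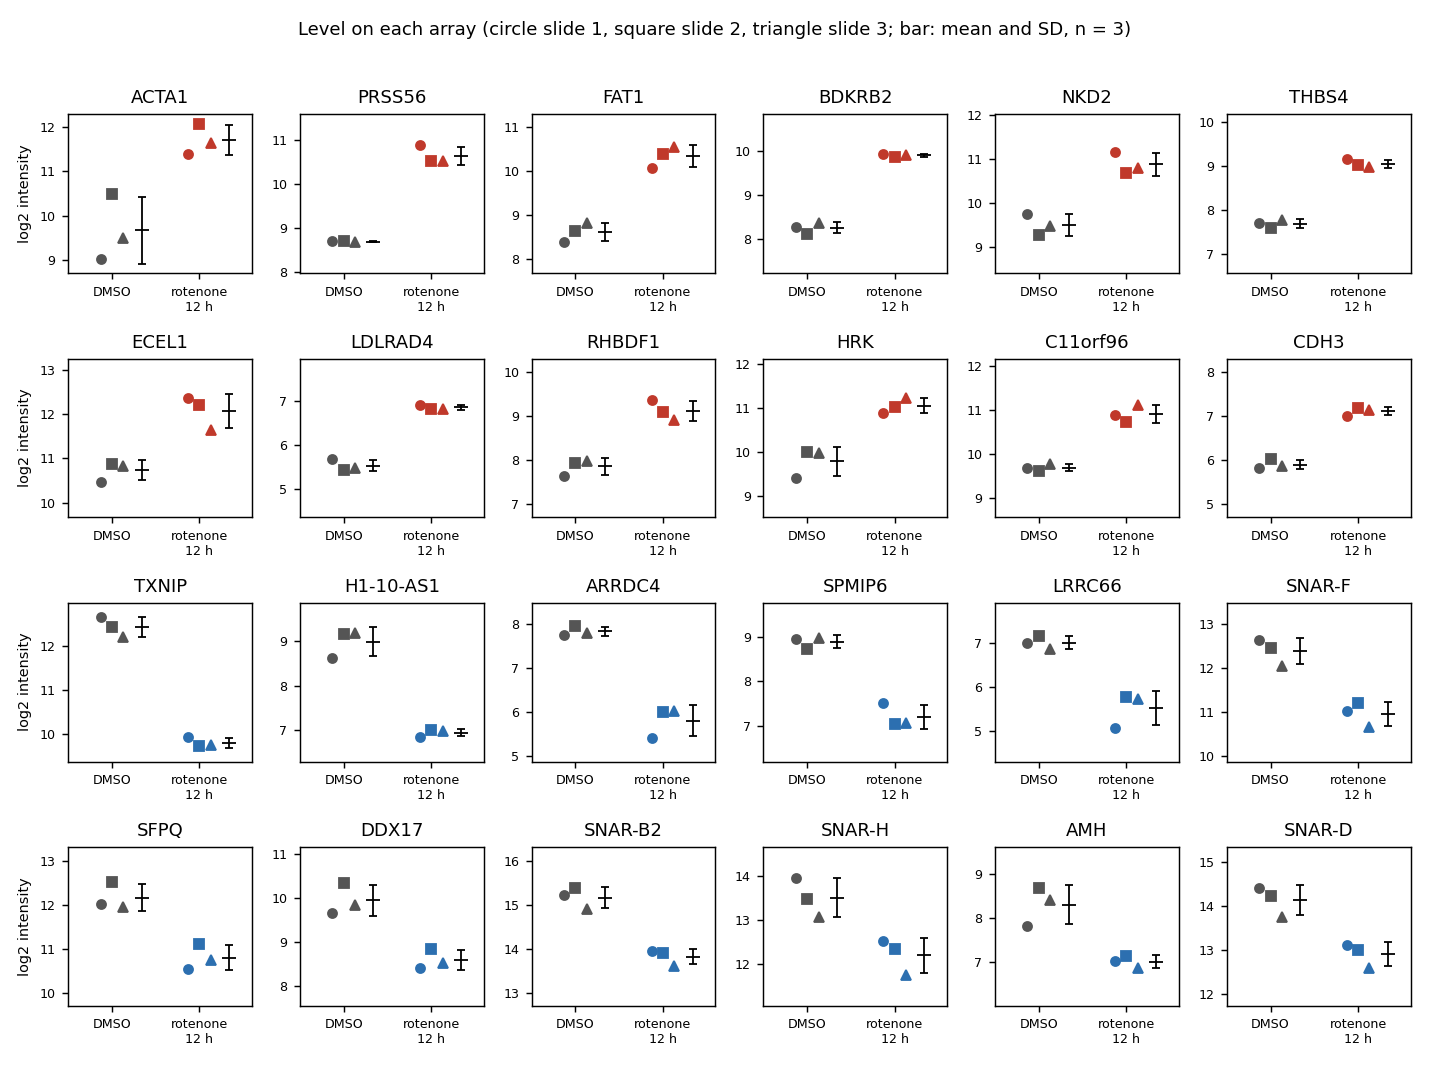
Each panel shows 1 gene's level (log2 intensity) on the 3 DMSO arrays (grey) and the 3 arrays after 12 h of rotenone (red if higher, blue if lower), with the slide as the symbol and the mean and SD beside the points. The 12 genes with the largest increases and the 12 with the largest decreases are shown, chosen among called genes that were well above background on all 6 arrays and whose groups did not overlap, so in every panel the groups are apart, as in TXNIP, with DMSO arrays between 12.19 and 12.65 and rotenone arrays between 9.73 and 9.93.

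Targets of SRF and its cofactors, which respond to the pool of free actin, were listed with other actin genes. Of 27 tested, 4 passed the adjusted p upward and 0 downward, against 2.82% and 3.26% of all genes. Of the 27, 2 were called higher, against 0.844% of all genes, and the list's median was 0.16 against -0.01 for all genes. The called genes were ACTA1 and FHL2, a LIM-domain protein at 8.29, 7.82 and 8.07 on the DMSO arrays and 8.87, 8.68 and 8.76 on the rotenone arrays, which rose by 0.70 ± 0.11 (log2, SE), adjusted p = 0.00121. The cross-linker ACTN1 (0.45, adjusted p = 0.0178) and the focal adhesion protein ZYX (0.45, adjusted p = 0.0483) rose by less than 1.5-fold. Of 12 targets of the related mechanosensors YAP and TAZ, 0 passed in limma's test, with a median of -0.02, and CCN1, with the smallest p among them, differed by 0.37, adjusted p = 0.125.

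EGR1 is a textbook SRF target through serum response elements, yet it moved in the opposite direction to ACTA1. EGR1 was at 5.22, 5.98 and 5.89 on the DMSO arrays and 4.56, 4.92 and 5.23 on the rotenone arrays, a difference of -0.79 ± 0.15 (log2, SE), adjusted p = 0.00502. The groups overlapped by the narrow margin between DMSO array 1 and rotenone array 3, and rotenone was lower than DMSO within all 3 slides. Of 29 immediate early genes, which answer stimuli within minutes, 1 was called, EGR1, against 1.83% of all genes, and the median was -0.05. Without a fold limit, IER3 (-0.52, adjusted p = 0.00281) and IER5 (-0.52, adjusted p = 0.00372) fell with it, while the MAP kinase phosphatases DUSP1 (0.53, adjusted p = 0.00271) and DUSP6 (0.42, adjusted p = 0.0491) rose. The call of EGR1 was lost without the slide as a block, on slides 2 and 3 alone or with a background offset of 50 (adjusted p 0.0604 to 0.343 or a log2 difference of -0.35).

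The ACTA1 and EGR1 promoters are given for this contrast, with the SRF motif (CArG box) in capitals. A CArG box lay 97 to 88 bases before the start of ACTA1, which also had a TATA box (TATAAA) 30 to 25 bases before it. EGR1 had CArG boxes 105 to 96 and 83 to 74 bases before its start.
ACTA1 (chr1:229434095-229434344, minus strand): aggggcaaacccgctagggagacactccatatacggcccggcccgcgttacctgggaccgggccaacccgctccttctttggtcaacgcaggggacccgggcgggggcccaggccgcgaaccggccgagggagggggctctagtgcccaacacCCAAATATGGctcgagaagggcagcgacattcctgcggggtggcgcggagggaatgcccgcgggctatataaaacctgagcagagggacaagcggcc
EGR1 (chr5:138465229-138465478, plus strand): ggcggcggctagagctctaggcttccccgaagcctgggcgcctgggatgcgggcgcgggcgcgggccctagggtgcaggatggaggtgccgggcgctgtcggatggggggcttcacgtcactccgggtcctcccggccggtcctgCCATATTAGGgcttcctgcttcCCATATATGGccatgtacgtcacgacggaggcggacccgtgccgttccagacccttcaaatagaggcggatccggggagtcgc
A CArG box was found, on either strand, in 1.12% of the 16190 promoters and TATAAA in 9.04%.

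Most ATF4 targets that passed the test were lower. Of 39 tested, 5 were called lower and 0 higher, against 0.985% and 0.844% of all genes. Without a fold limit, 12 passed the adjusted p downward and 1 upward, against 3.26% and 2.82% of all genes. The median was -0.20, with -0.23, -0.19 and -0.17 on the 3 slides. CHAC1, which degrades glutathione, was at 8.74, 8.91 and 9.00 on the DMSO arrays and 7.65, 7.83 and 7.88 on the rotenone arrays, a difference of -1.10 ± 0.11 (log2, SE), adjusted p = 4.12e-05. SESN2, a stress-induced inhibitor of mTORC1, was at 7.96, 8.05 and 8.02 on the DMSO arrays and 7.39, 7.02 and 7.27 on the rotenone arrays, a difference of -0.78 ± 0.11 (log2, SE), adjusted p = 0.000424. In both genes all rotenone arrays were below all DMSO arrays. The mTORC1 inhibitor DDIT4 (-0.52, adjusted p = 0.00137) and asparagine synthetase ASNS (-0.48, adjusted p = 0.00145) also fell, though by less than 1.5-fold, and JDP2, a bZIP repressor, was called (-0.72, adjusted p = 0.0178).

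Enzymes of serine synthesis and the mitochondrial folate cycle made up 5 of these 12 genes. PHGDH, the first enzyme of serine synthesis, was at 12.17, 11.67 and 11.86 on the DMSO arrays and 11.15, 11.07 and 10.76 on the rotenone arrays, a difference of -0.91 ± 0.11 (log2, SE), adjusted p = 0.000243. PSAT1, the second, differed by -0.61, adjusted p = 0.0052, and PSPH, the last, by -0.34, adjusted p = 0.0191. SHMT2 (-0.44, adjusted p = 0.00719) and MTHFD2 (-0.45, adjusted p = 0.0211), which carry serine carbon into the mitochondrial folate pool, fell too. The glycine transporter SLC6A9 (-0.43, adjusted p = 0.0496) and the seryl-tRNA synthetase SARS1 (-0.31, adjusted p = 0.00929) completed the 12, although SARS1 was at 0.15 with the brightest probe. The exception in the list was CTH, which makes cysteine from cystathionine and rose (0.53, adjusted p = 0.000634). Outside the list, the one-carbon enzyme MTHFD1 was called higher (0.59, adjusted p = 0.0041) and ALDH1L2 lower (-0.64, adjusted p = 0.0489). Both were picked after their values were seen. ALDH1L2 was not called with a background offset of 50 (a log2 difference of -0.42). JDP2 and PSAT1 were named after their values were seen, as all called members of the list. For JDP2 the call did not hold on slides 2 and 3 alone, with a background offset of 50 or without DMSO array 2 or 3 or rotenone array 1 (adjusted p 0.0725 to 0.0914 or a log2 difference of -0.39). PSAT1 was not called without the slide as a block, on slides 2 and 3 alone, with a background offset of 50 or without DMSO array 1 or rotenone array 2 (adjusted p 0.112 to 0.37 or a log2 difference of -0.56 to -0.46).

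The CHAC1 promoter is given because CHAC1 had the largest fall of the list and holds a match to the C/EBP-ATF element (TGATGNAA), which ATF4 is known to bind. The match, in capitals and on the opposite strand, lay 209 to 202 bases before the start, and the element was found in 2.32% of the 16190 promoters on either strand.
CHAC1 (chr15:40953221-40953470, plus strand): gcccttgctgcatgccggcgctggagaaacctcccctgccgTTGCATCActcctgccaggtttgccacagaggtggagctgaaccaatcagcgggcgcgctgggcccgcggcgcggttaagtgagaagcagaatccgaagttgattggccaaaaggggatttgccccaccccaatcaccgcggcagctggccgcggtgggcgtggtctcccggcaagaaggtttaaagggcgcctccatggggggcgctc

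In the unfolded protein response of the endoplasmic reticulum, 1 of 16 genes passed, against 6.08% of all genes. It was the chaperone HSPA5 (BiP), which was higher (0.37 ± 0.09 (log2, SE), adjusted p = 0.0149). The list's median was 0.17, with -0.00089 on slide 1 and 0.31 and 0.30 on slides 2 and 3. Most heat shock genes that passed were lower. Of 15 tested, 2 were called lower and 1 higher, against 0.985% and 0.844% of all genes. Without a fold limit, 5 passed downward and 1 upward, against 3.26% and 2.82% of all genes. The median was -0.19. The inducible HSP70 gene HSPA1B was at 9.33, 9.51 and 9.37 on the DMSO arrays and 8.46, 8.29 and 8.66 on the rotenone arrays, a difference of -0.93 ± 0.11 (log2, SE), adjusted p = 0.000129, and the groups did not overlap. Its near-identical copy HSPA1A may share signal with it. The constitutive HSPA8 was called (-0.63, adjusted p = 0.00126), and the co-chaperones DNAJB1 (-0.52, adjusted p = 0.00142) and DNAJA1 (-0.44, adjusted p = 0.00418) and the HSP110 gene HSPH1 (-0.37, adjusted p = 0.0126) fell by less than 1.5-fold. HSF1, the transcription factor that drives these genes, was called higher (0.64, adjusted p = 0.00101). The call of HSPA8 was lost without the slide as a block, on slides 2 and 3 alone, with Agilent's processed signal, with 75th percentile scaling or without DMSO array 1 (adjusted p 0.113 or a log2 difference of -0.57 to -0.54). For HSF1 the call did not hold on slides 2 and 3 alone, with a background offset of 50 or without rotenone array 1 (adjusted p 0.0717 or a log2 difference of 0.53 to 0.56).

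Rotenone binds complex I, and its subunits were listed first among the respiratory genes. Of 37 complex I subunits, 0 were called by limma, 4 passed the adjusted p without a fold limit, against 6.08% of all genes, and the median was -0.02. NDUFV3 (0.45 ± 0.08 (log2, SE), adjusted p = 0.00351) and NDUFB4 (0.34, adjusted p = 0.0423) were higher, and NDUFA9 (-0.33, adjusted p = 0.0339) and NDUFA3 (-0.30, adjusted p = 0.0284) lower. Of 38 subunits of complexes II to V, 0 were called and 1 passed, ATP5PD of ATP synthase (-0.26, adjusted p = 0.0448), with a median of -0.03.

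Of 24 genes of glycolysis and lactate export, 1 passed, against 6.08% of all genes, the phosphofructokinase PFKP (0.57 ± 0.13 (log2, SE), adjusted p = 0.0118), with a median of 0.02. Of 15 targets of the hypoxia factor HIF, 3 passed upward and 0 downward, against 2.82% and 3.26% of all genes, with a median of 0.06. ANKRD37 was called (0.73 ± 0.15 (log2, SE), adjusted p = 0.00644), the collagen prolyl hydroxylase P4HA2 (0.44, adjusted p = 0.0198) and NDRG1 (0.42, adjusted p = 0.0387) rose by less than 1.5-fold, and P4HA2 was at -0.090 in the deposited table. Of 19 antioxidant targets of NRF2, 0 were called and 1 passed, the malic enzyme ME1, which was lower (-0.42, adjusted p = 0.0459), with a median of -0.04. ANKRD37 was not called without the slide as a block, on slides 2 and 3 alone or with a background offset of 50 (adjusted p 0.0595 to 0.2 or a log2 difference of 0.56).

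All tubulin and microtubule genes that passed the test were lower. Of 26 tubulins and microtubule proteins, 3 were called lower and 0 higher, against 0.985% and 0.844% of all genes. Without a fold limit, 7 passed the adjusted p downward and 0 upward, against 3.26% and 2.82% of all genes. The median was -0.14. TUBB4B was at 11.40, 11.47 and 11.38 on the DMSO arrays and 10.55, 10.87 and 10.61 on the rotenone arrays, without overlap, and the difference was -0.74 ± 0.10 (log2, SE), adjusted p = 0.000291. TUBB4A (-0.66, adjusted p = 0.0251) and the axonal microtubule-associated protein MAP1A (-0.62, adjusted p = 0.0128) were called as well. TUBB (-0.57, adjusted p = 0.00213), TUBA1A (-0.48, adjusted p = 0.0331), TUBA1B (-0.47, adjusted p = 0.011) and TUBB2A (-0.45, adjusted p = 0.0222) fell by less than 1.5-fold. Tubulin paralogs are close in sequence, and their probes may share signal. The call of TUBB4A was lost without the slide as a block, on slides 2 and 3 alone, with ComBat in place of the block or without any DMSO array or rotenone array 1 or 2 (adjusted p 0.0509 to 0.506). For MAP1A the call did not hold without the slide as a block, with Agilent's processed signal or without DMSO array 3 or rotenone array 2 (adjusted p 0.0553 to 0.0882 or a log2 difference of -0.58).

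Of the 22 dopaminergic genes, 0 were called, and 2 passed without a fold limit, against 6.08% of all genes, the midbrain homeobox factor EN1, which was lower (-0.53 ± 0.10 (log2, SE), adjusted p = 0.00575), and the D2 receptor DRD2, which was higher (0.31, adjusted p = 0.0438). The probes of RET (-0.37 and 0.37) and of GFRA1 (-0.43 and 0.30) went in opposite directions and cancelled in the gene averages. TH was at 9.75, 9.91 and 9.81 on the DMSO arrays and 10.38, 9.76 and 9.41 on the rotenone arrays, and its groups overlapped. Of the 14 pan-neuronal genes, 1 passed, the intermediate filament INA (-0.35, adjusted p = 0.0288). Of 22 proneural and Notch genes, the Notch target HEY1 was lower (-0.56, adjusted p = 0.0153) and the neuroendocrine factor INSM1 higher (0.39, adjusted p = 0.0159). The medians of the 3 lists were 0.02, -0.06 and -0.02.

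Of 20 p53 and apoptosis genes, 3 passed upward and 0 downward, against 2.82% and 3.26% of all genes, with a median of -0.01. HRK, a neuronal BH3-only activator of cell death, was called. It was at 9.42, 10.01 and 9.97 on the DMSO arrays and 10.89, 11.03 and 11.23 on the rotenone arrays, a difference of 1.25 ± 0.19 (log2, SE), adjusted p = 0.000949, and all rotenone arrays were above all DMSO arrays. PHLDA3 (0.58, adjusted p = 0.00212) and the TRAIL receptor TNFRSF10B (0.31, adjusted p = 0.034) rose by less than 1.5-fold. Of 13 Wnt feedback genes 1 was called, against 1.83% of all genes. It was NKD2, an inhibitor that binds Dishevelled. NKD2 was at 9.76, 9.27 and 9.50 on the DMSO arrays and 11.17, 10.68 and 10.80 on the rotenone arrays, without overlap, a difference of 1.37 ± 0.14 (log2, SE), adjusted p = 4.12e-05, and the list's median was 0.04.

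Cell cycle genes had a median of -0.26, but this differed between slides, with a median on slide 1 of -0.78 against 0.11 and 0.04 on slides 2 and 3. Of 29 genes 1 passed, against 6.08% of all genes, cyclin E1 (CCNE1), which was lower (-0.37, adjusted p = 0.0167). Of 24 cholesterol genes 1 passed, the transcription factor SREBF2 (0.49, adjusted p = 0.0187), with a median of 0.04. Of 14 TGF-β and BMP response genes and 18 clock genes, 0 passed, with medians of 0.12 and 0.10. The smallest p in these 2 lists belonged to TGFBI (0.25, adjusted p = 0.311) and NFIL3 (0.35, adjusted p = 0.0571).

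Over all 28 lists, 20 of the 519 genes tested were called (3.85%, against 1.83% of all genes), 7 of them higher and 13 lower. The lists were chosen with earlier results of these data known, so this share is a description of them.

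**Figure D3:**
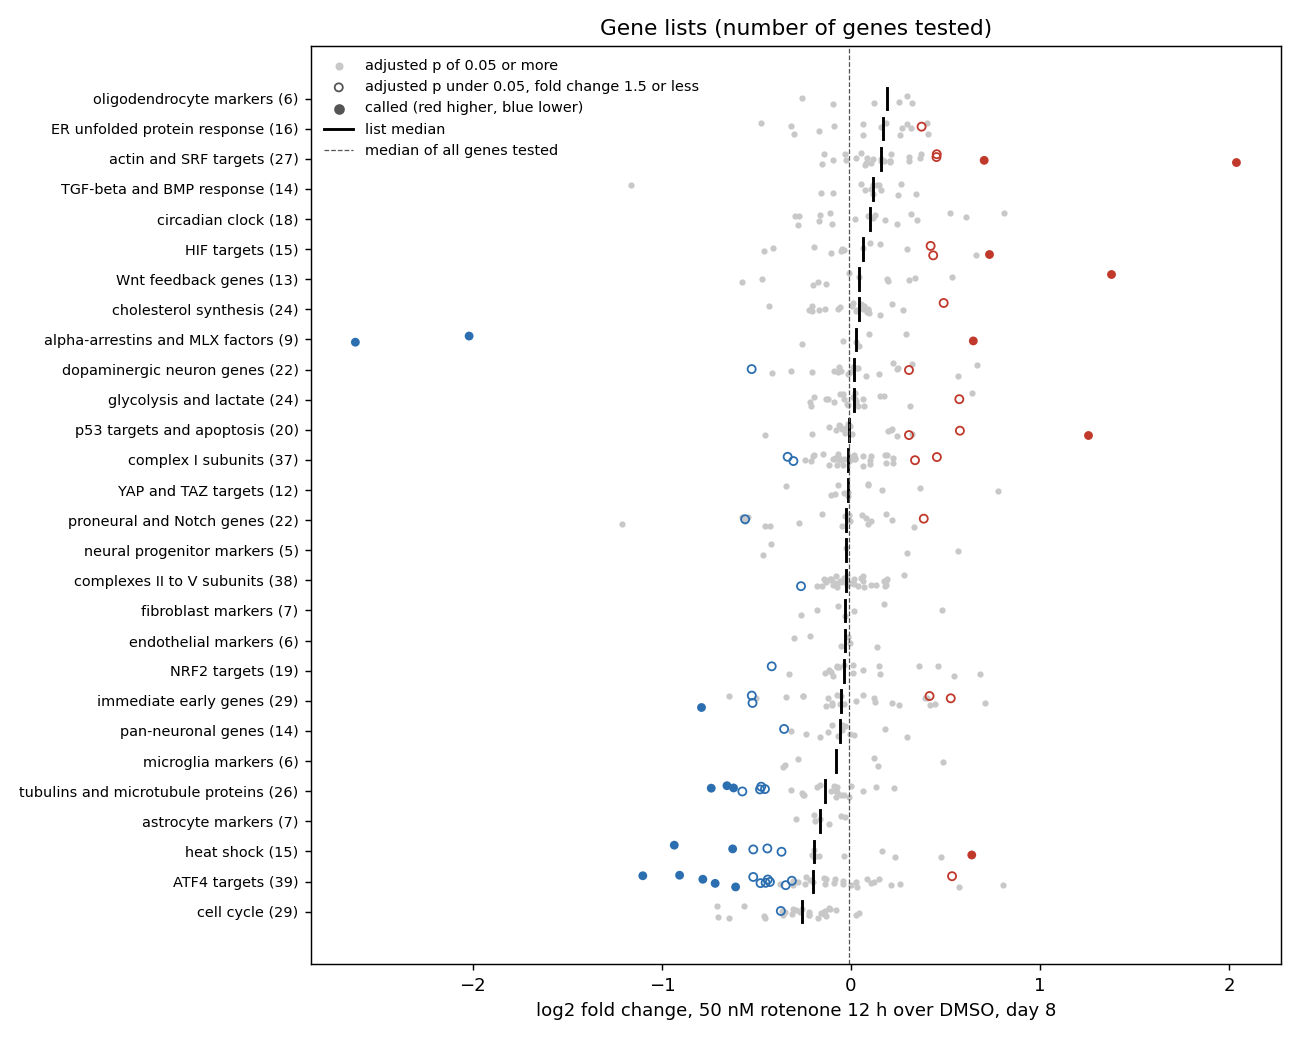
Each row is 1 of the 28 gene lists, with the number of genes tested in brackets, and each point is 1 gene's log2 fold change of 12 h rotenone over DMSO; filled points are called, open points passed the adjusted p with a smaller fold, and the black tick is the list's median. The called α-arrestins lie at -2.62 and -2.02, all called ATF4 targets and tubulins lie below 0, and the dashed line is the median of all genes (-0.01).

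The 12 h and 24 h groups of 50 nM rotenone were compared directly, which does not use the DMSO arrays. The comparison shares the rotenone 12 h arrays with that of 12 h and DMSO. A gene's differences in both are therefore not independent, and a deviation of the 12 h arrays would move both. Exposure length and collection time cannot be told apart in this comparison. Of 21324 genes, 52 were called (0.244%), 27 higher (0.127%) and 25 lower (0.117%) at 24 h, and 120 passed the adjusted p (0.563%). Of the 390 genes called at 12 h, 12 were among these 52. TXNIP (0.30, adjusted p = 0.447) and ARRDC4 (0.32, adjusted p = 0.4) did not pass in this comparison. The count of 52 depended on the fit. It was 4 without the slide as a block, 10 in a fit of the day 8 arrays alone and 0 on slides 2 and 3 alone, where 1585 genes had an unadjusted p under 0.05, and it was between 22 and 75 with 1 array left out. The lowest count came without rotenone 12 h array 2, and it was 28 without rotenone 12 h array 1, 25 without rotenone 24 h array 2 and 27 without rotenone 24 h array 3.

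FABP3, a fatty acid-binding protein, was at 7.76, 8.13 and 8.21 at 12 h and 9.41, 9.81 and 9.48 at 24 h, a difference of 1.53 ± 0.18 (log2, SE), adjusted p = 0.0013. FABP3 was already called above DMSO at 12 h (0.65, adjusted p = 0.0434). Of the 24 cholesterol genes, 8 passed upward, 0 passed downward and 16 did not pass from 12 h to 24 h, against 0.305% and 0.258% of all genes, and the list's median difference was 0.41. Among the 4 that were called were LSS (0.75, adjusted p = 0.00268), FDFT1 (0.68, adjusted p = 0.00189) and STARD4 (0.67, adjusted p = 0.0386). FDPS, which makes farnesyl diphosphate, differed by 0.58 ± 0.07 (log2, SE), adjusted p = 0.0013, and ACAT2, which makes the acetoacetyl-CoA that feeds the pathway, by 0.91 ± 0.10 (log2, SE), adjusted p = 0.0013. FABP3 was not called without the slide as a block, with a background offset of 50, in a fit of the day 8 arrays only or without DMSO array 2 or 3 or any rotenone array (adjusted p 0.0522 to 0.217 or a log2 difference of 0.52). These losses are of the FABP3 call against DMSO. In the comparison of 24 h with 12 h, STARD4 had an adjusted p of 0.0706 to 0.187 without rotenone 12 h array 1 or 2 or any 24 h array.

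Of the 16 genes of the unfolded protein response, 2 passed downward and 0 upward from 12 h to 24 h, and of the 15 heat shock genes, 1 passed upward and 0 downward. Over all genes, 0.258% passed downward and 0.305% upward. HSPA5 was lower at 24 h than at 12 h (-0.63 ± 0.09 (log2, SE), adjusted p = 0.00297). HSPA1B was higher (0.57 ± 0.11 (log2, SE), adjusted p = 0.0316) and nearer to its DMSO level. CHST8, a sulfotransferase of sugar chains, was called above DMSO at 12 h (0.71, adjusted p = 0.000552) and was lower at 24 h (-0.83 ± 0.10 (log2, SE), adjusted p = 0.0013). Both CHST8 differences rest on the same rotenone 12 h arrays, as do those of HSPA5 and HSPA1B. PCOLCE2, a procollagen protease enhancer, and LY6H, a neuronal GPI-anchored protein, were also lower at 24 h (-0.73 ± 0.09 (log2, SE), adjusted p = 0.0013 and -0.52 ± 0.06 (log2, SE), adjusted p = 0.00137). The HSPA1B difference did not pass when any of the arrays compared other than rotenone 12 h array 3 was left out (adjusted p 0.0716 to 0.147). In a fit of the day 8 arrays alone, the adjusted p was 0.0961 for HSPA5, 0.202 for HSPA1B, 0.0631 for FDPS and PCOLCE2, and 0.0942 for LY6H.

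**Figure D4:**
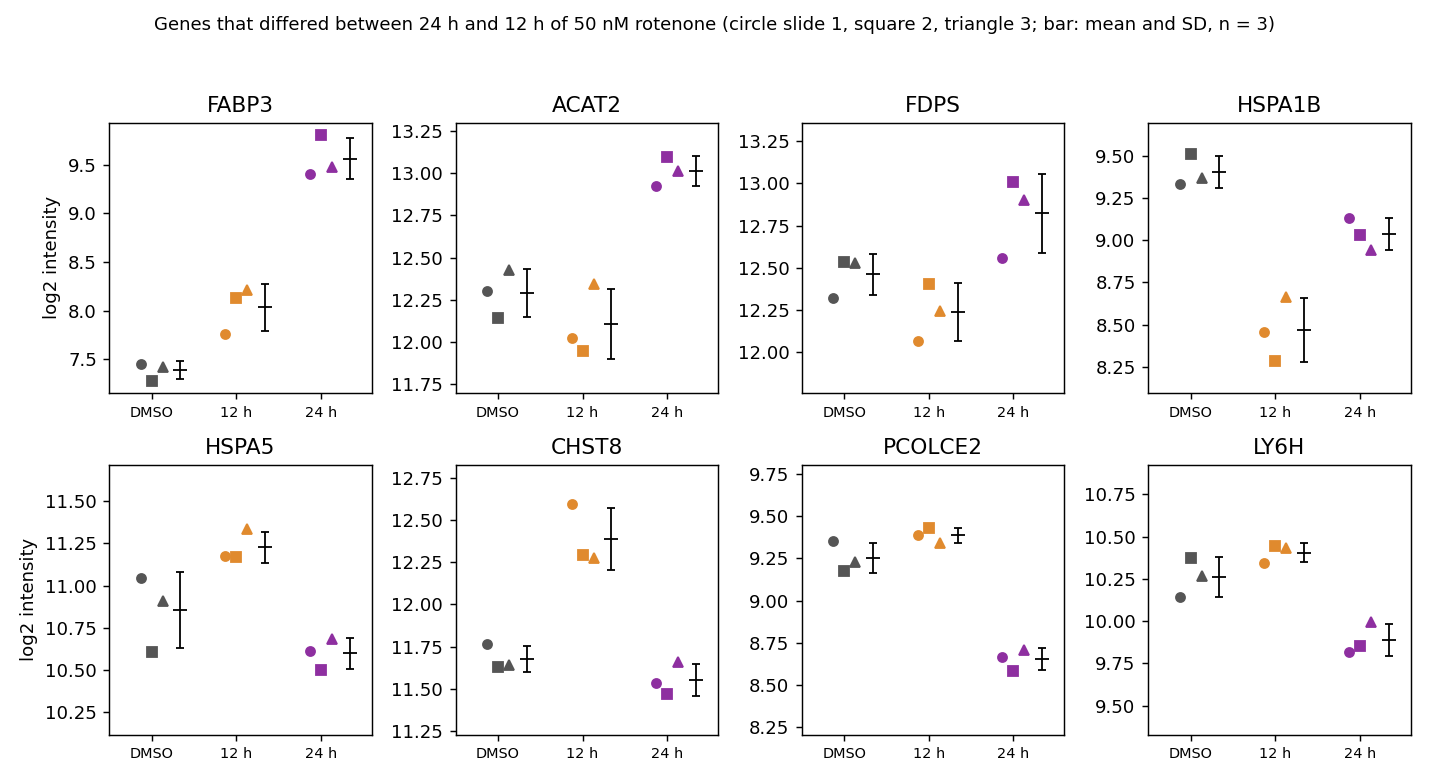
Each panel gives 1 gene's level (log2 intensity) on the 3 DMSO, 3 rotenone 12 h and 3 rotenone 24 h arrays of day 8, with the mean and SD beside the points. FABP3 steps up at both times, HSPA5 and CHST8 are highest at 12 h, and HSPA1B is lowest at 12 h. The 12 h arrays enter both the comparison with DMSO and that with 24 h.

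The comparisons of 24 h with DMSO use the same 3 DMSO arrays as the 12 h comparison, so their values are given side by side only. At 50 nM for 24 h, 603 genes (2.83%) were called, and at 100 nM for 24 h, 732 (3.43%). TXNIP was at -2.62 after 12 h, -2.33 after 24 h of 50 nM and -2.56 after 24 h of 100 nM, relative to DMSO. ARRDC4 was at -2.02, -1.70 and -2.11, and BDKRB2 at 1.64, 1.88 and 2.08. The tubulin list had medians of -0.14, -0.28 and -0.31, and the cholesterol list 0.04, 0.41 and 0.37.

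On day 15, the samples labelled 50 nM rotenone 12 h were compared with the day 15 DMSO samples. By limma, 0 genes were called, and 694 (3.25%) had an unadjusted p under 0.05. TXNIP differed by 0.03 ± 0.14 (log2, SE) and ARRDC4 by 0.26 ± 0.14, and ACTA1, which had the largest increase of the called genes on day 8, by 0.69 ± 0.55. The scan name of day 15 DMSO array 1 gives 12 h and does not name DMSO, so its place among the controls rests on its label.

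**Figure D5:**
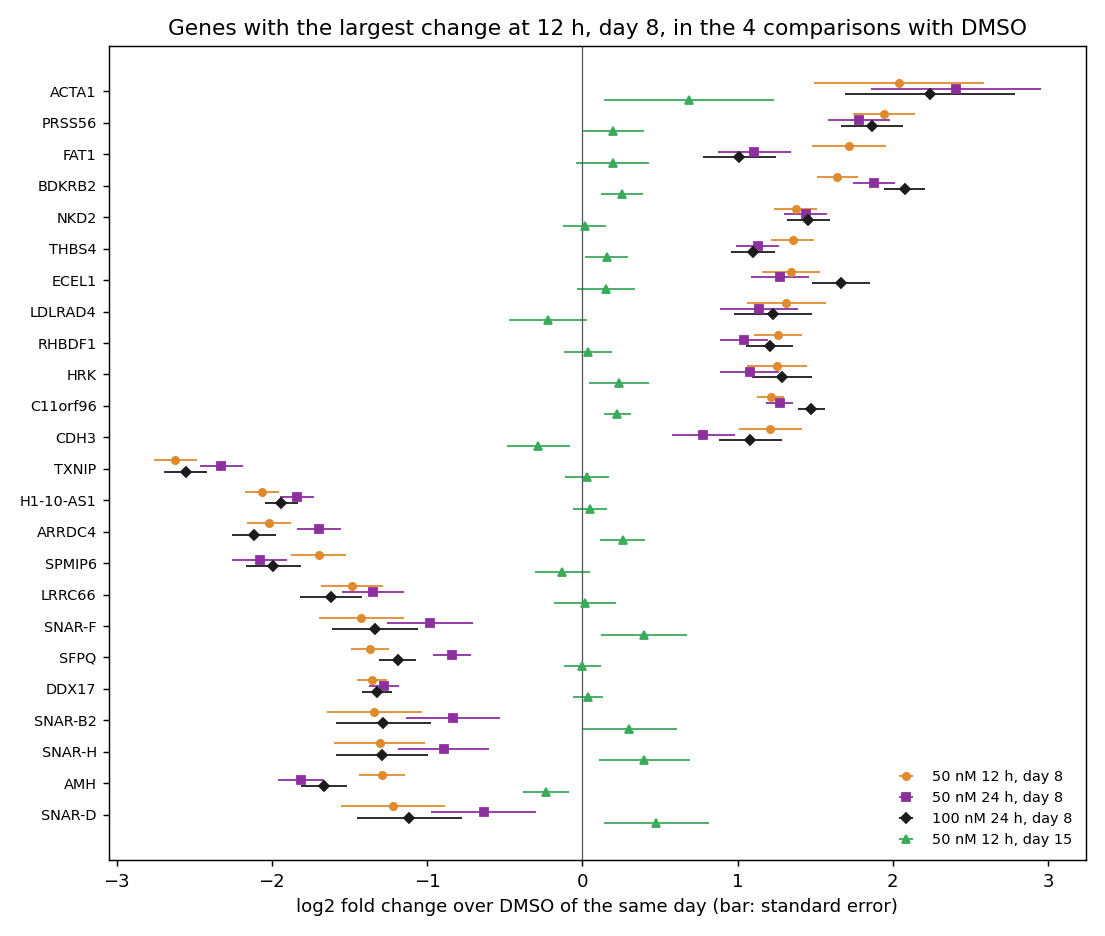
Points are log2 fold changes over DMSO of the same day, with standard errors, for the 12 genes with the largest increases and the 12 with the largest decreases after 12 h on day 8, among called genes well above background on all 6 arrays and without overlap. The 3 day 8 comparisons share their DMSO arrays, and on day 15 the values of TXNIP (0.03) and ARRDC4 (0.26) are near 0.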

How the data were processed

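Values came from the scanner tables of 24 arrays, deposited by the authors as median spot and background intensity from Agilent Feature Extraction (11.5.1.1, and 12.0.0.7 for slide 2 per the file headers). The authors' own table holds log2 values in 21730 rows named by probe, background-corrected, quantile-normalized and batch-corrected, and was used as an alternative. The paper states that it averaged probes per Entrez-ID. The gene median of its columns was 6.42 to 6.64.

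In limma 3.58.1 (R 4.3.3), median intensities were corrected with normexp (offset 0), quantile-normalized and log2-transformed. Spots above 1.1 times the 95th percentile of 308 negative controls on at least 3 arrays were kept (56581 of 58717 non-control spots), spots flagged as outliers were left out, replicate spots and then all probes of the same gene were averaged, and SystematicName accessions were named through RefSeq. Of 48646 probes kept, 29530 were named, giving 21324 genes. All 24 arrays entered 1 fit with the 8 groups and the slide as a block (14 residual degrees of freedom), followed by eBayes and Benjamini-Hochberg adjustment. The thresholds (1.5-fold, adjusted p under 0.05) were also used in the paper for day 8, before it turned to an unadjusted p under 0.01. Signal above background limits precision, and 3 arrays per group limit the rest.

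The replicate number is the slide, which the labels and scan data treat as a batch. Deviations from group means correlated in all 84 same-slide pairs of arrays (lowest r 0.172, median 0.462), against a median of -0.355 between slides. The method was tested on simulated data with known changes.

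Genes named were the 12 largest non-overlapping called changes each way above background on all 6 arrays, bound-only genes, up to 3 called genes per list (or the one with the smallest p), the 3 genes with the smallest p each way between 24 h and 12 h, and neuronal markers; members of lists that passed were added, and families and further genes were chosen after their values were seen. Of the cholesterol genes called between 24 h and 12 h, 1 is not reported here. The comparison and all gene lists were chosen with earlier results of these data known. Alternatives were the background correction, scaling, probe filter, block, slides and arrays used, probe rule, array weights, deposited values and an unadjusted p. Promoters (16190 of 21324 genes) are from RefSeq GRCh38.p14; since the table lacks many genes, no share was taken over called genes.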

Additional observations from a re-analysis of the deposited data

Results flagged for a closer look

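Genes whose level differed between 24 h and 12 h of 50 nM rotenone on day 8, by limma's test of that difference (adjusted over all genes), were singled out for a closer look. The log2 differences, 24 h minus 12 h, were 1.53 for FABP3, 0.91 for ACAT2, 0.58 for FDPS and 0.57 for HSPA1B among the genes that were higher at 24 h. They were -0.83 for CHST8, -0.73 for PCOLCE2, -0.63 for HSPA5 and -0.52 for LY6H among those that were lower. The adjusted p was 0.0013 for FABP3, ACAT2, FDPS, CHST8 and PCOLCE2, 0.00137 for LY6H, 0.00297 for HSPA5 and 0.0316 for HSPA1B. The collection times of the DMSO samples do not enter these differences. With no vehicle known to be of 12 h, exposure length and collection time cannot be told apart in them either.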

How the results depend on the processing

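The count of 390 genes called at 12 h was 602 with Agilent's processed signal, 205 with a background offset of 50, 172 without the replicate block and 214 on slides 2 and 3 alone, and it was between 353 and 494 under the other choices of filter, scaling, batch correction, probe, array weights and deposited values. With 1 array left out it was between 295 and 405. In a fit of only the 6 arrays compared, 0 genes were called, with 4003 at an unadjusted p under 0.05; that fit has few residual degrees of freedom. The 52 genes called between 24 h and 12 h became 93 with the processed signal, 4 without the replicate block, 0 on slides 2 and 3 alone, 0 with only the arrays compared, 10 with the day 8 arrays alone, 145 with an unadjusted p under 0.01 in place of the adjusted p, and between 22 and 75 with 1 array left out. The 20 list genes called became 13 without the replicate block, 13 on slides 2 and 3 alone, 0 with only the 6 arrays, and between 16 and 24 with 1 array left out. The fit of the day 8 arrays alone and the fit without the array of largest residual spread (435 genes called) were chosen after seeing the data. Of 83 called genes followed by name, 28 lost their call under no choice but the 6-array fit, 39 lost it without the block, and 0 changed direction. Among genes not called, several changed sign, including 18 of 33 further cell type markers. SLC1A3 changed sign with the processed signal (0.085), SARS1 with the brightest probe (0.15) and P4HA2 in the deposited values (-0.090), and the cause was not tested.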

Other observations

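Further genes called at 12 h, all chosen after their values were seen, belonged to groups not yet described. Of 14 monocarboxylate transporters tested, 3 were called higher and 0 lower, against 0.844% and 0.985% of all genes, and the family's median was 0.16. SLC16A8 passed downward by less than 1.5-fold (-0.50, adjusted p = 0.0418). SLC16A6 was at 4.66, 5.26 and 4.61 on the DMSO arrays and 6.05, 6.53 and 5.95 on the rotenone arrays (1.33 ± 0.22 (log2, SE), adjusted p = 0.00171), SLC16A9 at 7.56, 7.63 and 7.77 on the DMSO arrays and 8.36, 8.31 and 8.52 on the rotenone arrays (0.74 ± 0.11 (log2, SE), adjusted p = 0.000698) and SLC16A14 at 5.71, 6.54 and 6.39 on the DMSO arrays and 6.73, 7.38 and 7.38 on the rotenone arrays (0.95 ± 0.15 (log2, SE), adjusted p = 0.000982), with no overlap between groups. SLC16A6 was at 2.29 with the processed signal and 0.63 with a background offset of 50. Among the linker histones, H1-2 (0.81 ± 0.14 (log2, SE), adjusted p = 0.00175) and H1-3 (1.03 ± 0.18 (log2, SE), adjusted p = 0.00247) were called higher, whereas 6 of the 10 tested were below 0. Their median was -0.096, and it was 0.31 with the processed signal, 0.28 with probes well above background in at least 1 group and 0.12 on slides 2 and 3 alone. ODC1, the first enzyme of polyamine synthesis, was at 13.75, 13.64 and 13.53 on the DMSO arrays and 14.71, 14.55 and 14.57 on the rotenone arrays and rose (0.97 ± 0.10 (log2, SE), adjusted p = 4.12e-05), as did the cytokine IL11 (0.91 ± 0.17 (log2, SE), adjusted p = 0.00383). TIGAR, which lowers fructose 2,6-bisphosphate, fell (-0.85 ± 0.11 (log2, SE), adjusted p = 0.000252). The call of SLC16A6 was lost on slides 2 and 3 alone (adjusted p 0.0723). For SLC16A14 the call did not hold without the slide as a block (adjusted p 0.492). H1-2 was not called without the slide as a block or with ComBat in place of the block (adjusted p 0.0634 to 0.222). The call of H1-3 was lost without the slide as a block (adjusted p 0.11). For TIGAR the call did not hold without the slide as a block (adjusted p 0.0517).

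Among transcription factors and secreted proteins looked at, the LIM-only factors LMO3 and LMO1 were lower and the neurotrophin-induced peptide precursor VGF was higher. LMO3 was at 8.85, 9.72 and 9.19 on the DMSO arrays and 7.67, 8.18 and 8.51 on the rotenone arrays (-1.14 ± 0.19 (log2, SE), adjusted p = 0.00144), and LMO1 at 9.43, 9.63 and 9.63 on the DMSO arrays and 8.64, 8.70 and 9.07 on the rotenone arrays (-0.76 ± 0.10 (log2, SE), adjusted p = 0.00029). VGF was at 9.63, 8.99 and 8.94 on the DMSO arrays and 10.50, 9.76 and 9.71 on the rotenone arrays (0.80 ± 0.16 (log2, SE), adjusted p = 0.00538). The groups did not overlap in these 3 genes. VGF was counted with the granins and prohormone convertases after their values were seen. Of 9 tested, 3 were called higher and 0 lower, against 0.844% and 0.985% of all genes. However, 5 of the 9 were below 0, the median was -0.098, and SCG3 passed downward by less than 1.5-fold (-0.46, adjusted p = 0.0339). LMO3 was not called without the slide as a block or on slides 2 and 3 alone (adjusted p 0.0842 to 0.217). The call of LMO1 was lost without the slide as a block (adjusted p 0.0586). For VGF the call did not hold without the slide as a block or on slides 2 and 3 alone (adjusted p 0.058 to 0.363).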
